A study of Homo sapiens with 4 samples.

Results

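TAL1, LMO2 and LDB1 form the core of a transcription factor complex of blood and endothelial progenitors, and they are described here with 5 further genes: LYL1, TCF3, TCF4, TCF12 and HHEX. The 8 genes were picked out by symbol from a table of 58365 rows, with earlier results of these data known, and each symbol had 1 row. All 8 passed the filter on low values and were among the 14909 genes tested. The libraries came from H1, a widely used line of human embryonic stem cells (hESCs), which was steered towards blood in steps and collected at day 8. All cells received 40 ng/ml activin A and 50 ng/ml BMP4 for 2 days, then 40 ng/ml VEGF and 50 ng/ml bFGF for 3 days, and VEGF and bFGF at the same doses for the last 3 days. During those last 3 days the SB group (2 libraries) was also given SB431542, an inhibitor of TGFβ type I receptors, while the DMSO group (2 libraries) was not. According to the study's methods the sequenced cells were CD31+, that is, they carried PECAM1, a surface protein shared by endothelial and early blood cells. The labels mention no such sort, and they do not say whether replicates 1 and 2 came from separate cultures, so p-values measure only the spread between these libraries.

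TAL1 and its paralog LYL1 are basic helix-loop-helix (bHLH) proteins that bind DNA only after pairing with an E protein, of which TCF3 (E2A), TCF4 (E2-2) and TCF12 (HEB) are the mammalian members. The pair recognises the E-box, and the LIM-only protein LMO2 bridges it to GATA factors and to LDB1, which joins with itself and so can bring distant sites together. ID proteins have the helix-loop-helix but lack the basic DNA-binding part, and they take up E proteins in pairs that cannot bind DNA. HHEX is a homeobox factor of early endothelium, blood and endoderm and is not a subunit of the complex.

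Since TAL1 and LYL1 are themselves read by GATA factors in blood progenitors, the sequence before their starts is shown, with that of HHEX. RefSeq promoter windows on GRCh38.p14, each holding 250 bases before and 50 bases after an annotated start, were found for 7 of the 8 genes, all but LMO2. In each stretch, printed 5′ to 3′ on the gene's strand, capitals mark a GATA motif (GATAA, or TTATC where it lies on the other strand) or an E-box (CANNTG, which reads the same on both strands). The stretches cover positions -100 to -1 of TAL1 (chr1:47232336-47232435, minus strand, start 1 of 2), -50 to 20 of LYL1 (chr19:13102839-13102908, minus strand) and -50 to -1 of HHEX (chr10:92689905-92689954, plus strand), counted from the start at 1 with no position 0.
TAL1: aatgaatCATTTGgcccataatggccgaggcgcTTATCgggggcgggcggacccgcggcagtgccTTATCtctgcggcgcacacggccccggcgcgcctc
LYL1: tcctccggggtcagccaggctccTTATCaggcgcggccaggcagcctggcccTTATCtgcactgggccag
HHEX: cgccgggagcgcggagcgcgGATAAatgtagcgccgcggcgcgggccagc
The window of TAL1 start 1 held GATA motifs at -67 and -35, 32 bases apart, and an E-box at -93. LYL1 held GATA motifs at -27 and 3, which lie 29 bases apart, and no E-box. HHEX held 1 GATA motif, at -30. Over all 35116 windows, 22.7% held at least 1 GATA motif, 4.8% held 2 or more and 68.7% held an E-box. Neither motif was found in the windows of LDB1, TCF3 and TAL1 start 2. Of the 10 windows of TCF4, 2 held a GATA motif and 7 an E-box, and of the 5 windows of TCF12, 0 held a GATA motif and 2 an E-box. No GATA motif overlapped an E-box in the windows of TAL1, LYL1 and HHEX. A match describes these letters only.

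**Figure D1:**
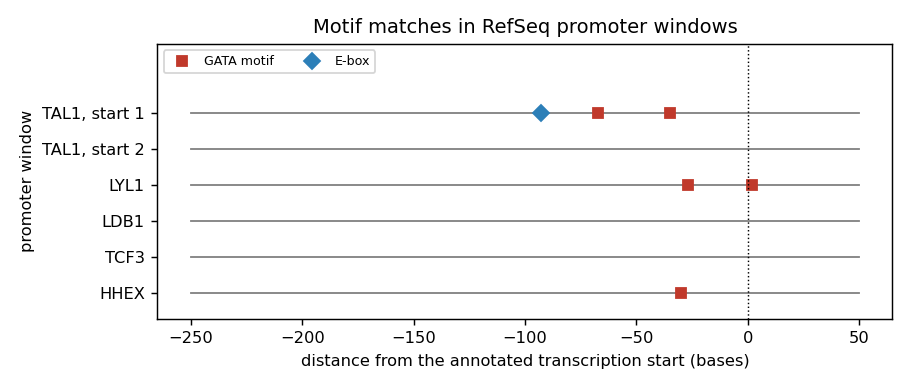
Matches to the GATA motif (red squares) and the E-box (blue diamonds) in promoter windows, by distance in bases from the annotated start (0, dotted line). TAL1 start 1 and LYL1 each show a pair of GATA matches, HHEX shows 1, and the lines of LDB1, TCF3 and TAL1 start 2 are empty.

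The level of each gene was given as FPKM, a fragment count divided by transcript length and by the mapped fragments of the library, which allows levels of different genes to be set side by side. All 8 genes were clearly present in every library, between 20.8 FPKM (TCF12) and 300.2 FPKM (TCF3). By mean level over the 4 libraries they stood between percentile 74.4 (TCF12) and percentile 97.5 (TCF3) of the genes tested. In DMSO libraries the order by mean was TCF3, LDB1, LMO2, LYL1, HHEX, TCF4, TAL1 and TCF12. The ranges of neighbours overlapped for TCF3 and LDB1, for LDB1 and LMO2, and for LYL1 and HHEX. In SB libraries TAL1 stood above TCF4 and the order was otherwise the same. Overlap was found there for TCF3 and LDB1, LDB1 and LMO2, and LMO2 and LYL1. Only neighbours were compared, and the top of the order differed by replicate number. In both replicate 2 libraries LMO2 was the highest of the 8, at 133 FPKM in DMSO (TCF3, 106) and 132 FPKM in SB (TCF3, 112).

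**Figure D2:**
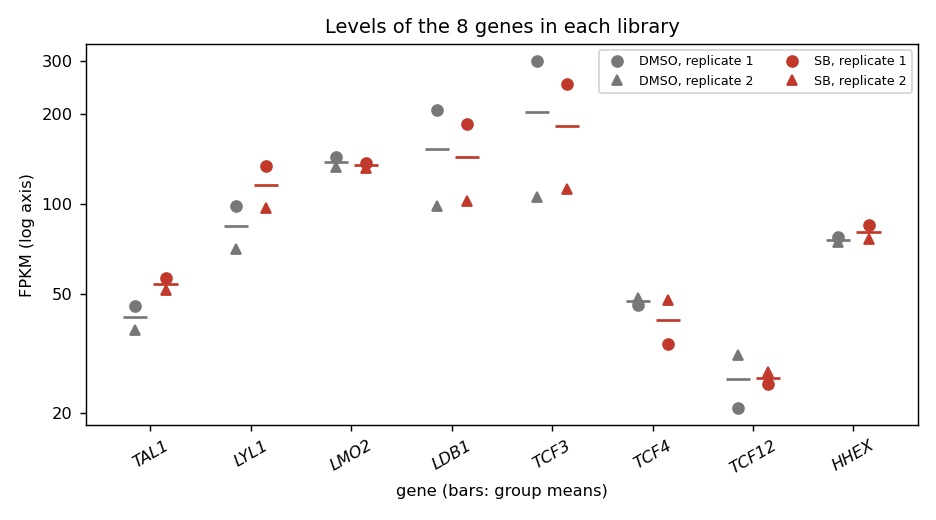
FPKM on a log axis for the 8 genes in the 4 libraries (grey, DMSO; red, SB; circles, replicate 1; triangles, replicate 2; bars, group means). TAL1 is the gene whose SB points both lie above its DMSO points, while TCF3 and LDB1 split by replicate number, with circles far above triangles.

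To ask whether blocking TGFβ signaling was accompanied by a change in the complex, SB and DMSO libraries were compared with limma on log2(FPKM + 1), and p-values were adjusted over all 14909 genes by the Benjamini-Hochberg method. Of the 8 genes, 0 had an adjusted p under 0.05, where 0.134% of all genes tested did, and 0 had an unadjusted p under 0.05, where 9.96% did. The SB and DMSO values did not overlap for 1 of 8 genes, TAL1, against 37.5% of all genes, and 21.5% of all genes had both SB values above both DMSO values, as TAL1 did. The median log2 difference of the 8 genes was 0.00 and that of all genes was 0.04. With 2 libraries against 2, the smallest two-sided p of an exact permutation test is 0.333, and such a test was not run on single genes.

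The bHLH members TAL1 and LYL1 had the highest differences of the 8. TAL1 (chromosome 1, 47216290 to 47232220, minus strand, GRCh38), a master regulator of blood specification, was measured at 45.6 FPKM in DMSO replicate 1, 38.0 in DMSO replicate 2, 56.4 in SB replicate 1 and 51.8 in SB replicate 2. Both SB libraries were above both DMSO libraries, with means of 54.1 ± 3.27 and 41.8 ± 5.37 FPKM (SD, n = 2 each). The log2 difference of 0.37 (SE 0.18, 95% interval -0.09 to 0.83) corresponds to 1.29-fold and did not pass (limma adjusted p = 0.622). It was 0.24 when DMSO replicate 2 was left out. TAL1 is one of the genes the study displayed in a heatmap made from these same libraries, so its direction is not independent evidence. Its exons overlap the antisense gene AL135960.1, and it is not stated whether counting used the strand, so reads of the pair cannot be told apart.

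LYL1 (chromosome 19, 13099033 to 13103161, minus strand), which can stand in for TAL1 in adult blood stem cells, was at 98.8 FPKM in DMSO replicate 1 and 70.7 in DMSO replicate 2, and at 135 and 97.0 in SB replicates 1 and 2. SB replicate 2 lay just below DMSO replicate 1, so the groups overlapped. Means were 116 ± 26.6 FPKM with SB and 84.7 ± 19.9 FPKM without (SD, n = 2 each). The difference was 0.45 (SE 0.26, 95% interval -0.23 to 1.13; 1.36-fold; limma adjusted p = 0.719). Between libraries of the same number LYL1 was 36.3% higher with SB in replicate 1 and 37.2% higher in replicate 2, and TAL1 was 23.7% and 36.2% higher. Left-out libraries moved the LYL1 difference to 0.21 (DMSO replicate 2 or SB replicate 1), 0.69 (DMSO replicate 1) or 0.68 (SB replicate 2). Of the summed FPKM of TAL1 and LYL1, TAL1 made up 31.6% and 35.0% in DMSO replicates 1 and 2 and 29.5% and 34.8% in SB replicates 1 and 2. This share was computed after the values were seen. LYL1 thus had the higher FPKM in every library.

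The bridging proteins LMO2 and LDB1 had differences near 0, with intervals of very unequal width. LMO2 (chromosome 11, 33858576 to 33892289, minus strand) was the steadiest of the 8 genes, at 144 and 133 FPKM in DMSO replicates 1 and 2 and 137 and 132 FPKM in SB replicates 1 and 2. The groups overlapped, and the log2 difference was -0.04 (SE 0.15, limma adjusted p = 0.979), with a 95% interval from -0.44 to 0.36, or from 0.738-fold to 1.29-fold. LDB1 (chromosome 10, 102107560 to 102120453, minus strand) was at 207 and 98.8 FPKM in DMSO replicates 1 and 2 and at 185 and 102 FPKM in SB replicates 1 and 2. Both replicate 1 libraries were high and both replicate 2 libraries low, whatever the treatment. Its difference of -0.06 (SE 0.46, 95% interval -1.26 to 1.14, limma adjusted p = 0.990) has an interval that reaches from 0.418-fold to 2.21-fold.

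Among the E proteins, TCF3 (chromosome 19, 1609290 to 1652605, minus strand) was at 300.2 and 106 FPKM in DMSO replicates 1 and 2 and at 252 and 112 FPKM in SB replicates 1 and 2. As for LDB1, the replicate number and not the treatment separated the libraries, and the difference was -0.08 (SE 0.63, 95% interval -1.71 to 1.55, limma adjusted p = 0.990). TCF4 (chromosome 18, 55222331 to 55664787, minus strand) was at 46.0, 48.5, 34.2 and 47.7 FPKM in the same order of libraries. SB replicate 1 stood low and SB replicate 2 lay within the DMSO range, and the difference was -0.22 (SE 0.22, 95% interval -0.78 to 0.34, limma adjusted p = 0.853). TCF12 (chromosome 15, 56918623 to 57299281, plus strand) was at 20.8, 31.2, 25.1 and 27.4 FPKM, both SB values lying between the DMSO values (0.04, SE 0.24, 95% interval -0.59 to 0.66, limma adjusted p = 0.9895). TCF4 exons overlap the pseudogene RPL21P126 and the antisense gene TCF4-AS2, so part of its reads is uncertain.

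HHEX (chromosome 10, 92689951 to 92695646, plus strand) was at 77.8 and 74.5 FPKM in DMSO replicates 1 and 2 and at 85.0 and 76.3 FPKM in SB replicates 1 and 2. The ranges overlapped and the difference was 0.08 (SE 0.16, 95% interval -0.33 to 0.49, limma adjusted p = 0.956). The sign of small differences depended on single libraries. Without DMSO replicate 1, LMO2 turned to 0.02, LDB1 to 0.47, TCF3 to 0.66 and TCF12 to -0.24. Without SB replicate 2, LDB1 turned to 0.37, TCF3 to 0.50 and TCF12 to -0.02, and without SB replicate 1, TCF4 turned to 0.01. Comparing libraries of the same number, 5 of 8 genes had the same direction in both numbers (TAL1, LYL1 and HHEX higher with SB, LMO2 and TCF4 lower), against 71.5% of all genes tested.

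**Figure D3:**
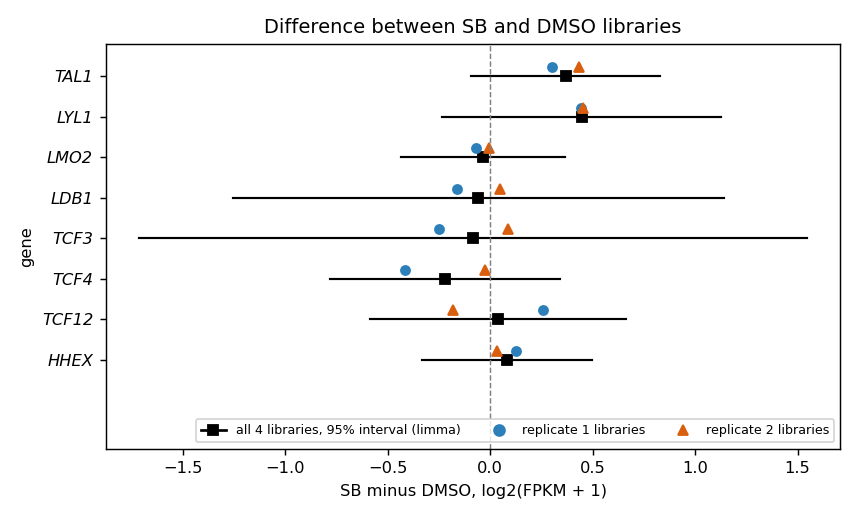
Difference between SB and DMSO on the log2(FPKM + 1) scale for each gene (black squares, limma over 4 libraries with 95% intervals), with the differences between replicate 1 libraries (blue circles) and replicate 2 libraries (orange triangles). Every interval crosses 0; the pairs of points for TAL1 (0.30 and 0.44) and LYL1 (0.44 and 0.45) lie to the right of it.

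The replicate number separated most of these genes. For 7 of 8, all but TAL1, the replicate 1 values lay wholly above or wholly below the replicate 2 values, against 52.6% of all genes tested. LYL1, LMO2, LDB1, TCF3 and HHEX were higher in the replicate 1 libraries, and TCF4 and TCF12 were lower. TCF3 was 2.51-fold and LDB1 1.94-fold higher in replicate 1 on the log2(FPKM + 1) scale, followed by LYL1 at 1.39-fold, while TCF12 was at 0.788-fold and TCF4 at 0.828-fold.

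The GC content of the transcripts moved with this split. The longest annotated transcript of TCF3 had 61.2% GC, LDB1 59.7%, LYL1 57.4%, LMO2 55.5%, TAL1 53.2%, HHEX 46.8%, TCF12 40.8% and TCF4 38.2%. The 3 genes with the highest GC content were the 3 with the highest ratio of replicate 1 to replicate 2, and the 2 with the lowest GC content were the 2 below 1. Across 14880 tested genes with a GC value, which share the same 4 libraries, the difference between numbers had a Pearson r of 0.523 with GC content and the difference between SB and DMSO an r of -0.097. The median difference between numbers was 0.32 for 4547 genes above 55% GC and -0.24 for 5385 genes below 45% GC. Mitochondrial genes held 5.88% and 6.64% of summed FPKM in the replicate 1 libraries (DMSO, SB) and 9.92% and 10.2% in the replicate 2 libraries. The part of either measure in the levels of TCF3 and LDB1 was not tested.

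**Figure D4:**
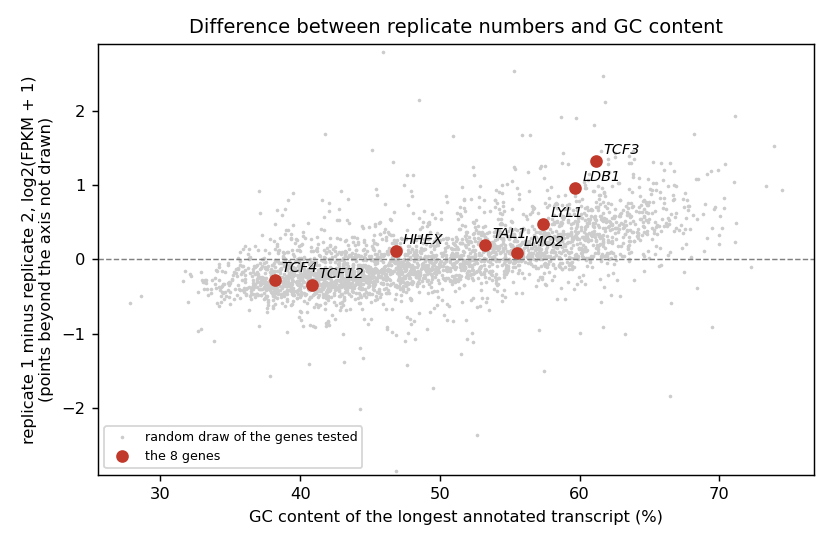
Mean of the replicate 1 libraries minus mean of the replicate 2 libraries, in log2(FPKM + 1), against the GC content of the longest annotated transcript in percent, for the 8 genes (red) and a random draw of the genes tested (grey). TCF3 and LDB1 are at the upper right, and TCF4 and TCF12 are below 0 at the left.

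Ratios within a library do not depend on the scaling between libraries. They were used to describe the balance of partners at the RNA level, without a test. The summed FPKM of TAL1 and LYL1 per summed FPKM of the 3 E proteins was 0.393 and 0.586 in DMSO replicates 1 and 2 and 0.614 and 0.794 in SB replicates 1 and 2. Both SB libraries were above both DMSO libraries, and the E protein sum was the larger of the pair in every library. TCF3 made up 81.8% and 57.0% of the E protein FPKM in DMSO replicates 1 and 2. In SB replicates 1 and 2 it made up 81.0% and 59.9%. Its FPKM was thus the highest of the 3 E protein genes in every library. These shares are not corrected for transcript GC content (TCF3 61.2%, TCF12 40.8%, TCF4 38.2%), and its part in them was not tested. The TCF3 share differed by number rather than by treatment. LMO2 per LDB1 likewise was 0.695 and 0.743 in the replicate 1 libraries (DMSO, SB) and 1.35 and 1.30 in the replicate 2 libraries. With LMO2 as the base, ratios formed after the values were seen were 0.317 and 0.286 (DMSO) and 0.411 and 0.391 (SB) for TAL1, and 0.686 and 0.531 (DMSO) and 0.980 and 0.733 (SB) for LYL1.

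The ID genes code for inhibitors of E proteins and are known targets of BMP and TGFβ signaling. Of 4 ID genes, 0 passed the adjustment and 3 had an unadjusted p under 0.05, against 9.96% of all genes tested. The same 3 did not overlap, all lower with SB, against 37.5% of all genes without overlap in either direction. The median log2 difference was -0.85. ID1 was at 470.3 and 505 FPKM in DMSO replicates 1 and 2 and at 179 and 187 FPKM in SB replicates 1 and 2, a difference of -1.41 (limma adjusted p = 0.0803). ID3 (-0.87, limma adjusted p = 0.187) and ID2 (-0.83, limma adjusted p = 0.246) had the same direction, and ID4, at 4.46 to 12.4 FPKM, overlapped between groups (-0.36). Summed over ID1 to ID4, the level was 728 and 747 FPKM in DMSO replicates 1 and 2 and 320.4 and 322 FPKM in SB replicates 1 and 2. Per E protein FPKM the ID sum was 1.98 and 4.03 in DMSO and 1.03 and 1.72 in SB replicates 1 and 2. Both SB values were below both DMSO values. With TCF4 and TCF12 alone as the base, a choice made after the values were seen, the ID ratio was 10.9 and 9.36 in DMSO and 5.41 and 4.28 in SB. On that same base the ratio of TAL1 and LYL1 was 2.16 and 1.36 in DMSO and 3.22 and 1.98 in SB replicates 1 and 2, so SB replicate 2 lay below DMSO replicate 1 and the separation seen with all 3 E proteins was lost.

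The next list held cofactors that bind the complex together with relatives of LMO2 and LDB1. The cofactors include single-stranded DNA-binding proteins that stabilise LDB1 and the corepressors that TAL1 recruits. Of 13 tested genes, 0 passed the adjustment in limma and 1 (LMO4) had an unadjusted p under 0.05, against 9.96% of all genes. SB values lay wholly above for 4 and wholly below for 1 (LDB2), against 37.5% of all genes without overlap. The median was 0.13. LMO4, a LIM-only protein that also binds LDB1, was at 45.9 and 39.5 FPKM in DMSO and 69.3 and 61.5 FPKM in SB replicates 1 and 2 (0.60, limma adjusted p = 0.365). LDB2, the paralog of LDB1, was the most abundant gene of this list. It was at 322 and 363 FPKM in DMSO and 273 and 278 FPKM in SB (-0.31, limma adjusted p = 0.647). LDB2 thus stood below DMSO in both SB libraries. CBFA2T3 (ETO2), a corepressor of the complex and also a gene of the study's heatmap, was at 38.5 and 16.1 FPKM in DMSO and 70.8 and 32.4 FPKM in SB (0.91, limma adjusted p = 0.727), and its groups overlapped because both replicate 2 libraries were low. LMO1 and LMO3, the paralogs of LMO2, were below the filter, at 0.168 FPKM or less in every library.

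The GATA factors that join the complex gave GATA1 at 0.58 (limma adjusted p = 0.322), GATA2 at 0.23 and GATA3 at -0.06. Of the 3, 0 passed the adjustment, and only GATA1 had an unadjusted p under 0.05 and no overlap between groups. The shares of all genes tested were 9.96% and 37.5%. Among 7 factors that bind together with TAL1, LYL1 and LMO2 in blood stem cells, a list including these 3 genes, 0 passed the adjustment. In it 1 had an unadjusted p under 0.05, against 9.96% of all genes, and the median was 0.23. RUNX1, the regulator of blood emergence from endothelium, had the highest difference in that list (0.81, limma adjusted p = 0.280), and the ETS factors FLI1 (0.20) and ERG (-0.22) overlapped. Other class II bHLH factors, which compete for E proteins, had 0 of 8 tested genes past the adjustment. In this list TAL2 was at 2.47 and 2.89 FPKM in DMSO and 1.10 and 0.724 FPKM in SB replicates 1 and 2. It averaged under 1 FPKM with SB and passed the filter only through the DMSO libraries, so the next counts leave it out. Of the 7 that averaged 1 FPKM or more in both groups, 1 had an unadjusted p under 0.05 and 2 were wholly lower. Their median was -0.14. Among all genes tested, 9.96% had such a p and 37.5% did not overlap in either direction. HAND1, a factor of heart and extraembryonic mesoderm, was at 11.6 and 11.1 FPKM in DMSO and 2.34 and 1.98 FPKM in SB (-1.97, limma adjusted p = 0.0646). SCX (-0.59) and HAND2 (-0.14), factors of tendon and of heart, did not pass either.

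Erythroid genes that the complex is known to bind had differences of both signs. Of 7 tested, 0 passed the adjustment and 5 had an unadjusted p under 0.05, against 9.96% of all genes. Wholly higher were 4 and wholly lower 2, against 37.5% of all genes without overlap, and the median was 0.26. GFI1B, a repressor of erythroid and megakaryocyte cells, was at 28.2 and 21.8 FPKM in DMSO and 76.3 and 64.5 FPKM in SB (1.47, limma adjusted p = 0.117), from the higher of its 2 rows. ALAS2, the first enzyme of heme synthesis in red cells, was at 53.3 and 46.4 FPKM in DMSO and 11.7 and 10.7 FPKM in SB (-2.06, limma adjusted p = 0.0605). The list also holds NFE2, a gene of the study's heatmap. EPB42 and SLC4A1, both of the red cell membrane, were below the filter, at 0.644 FPKM or less in every library.

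**Figure D5:**
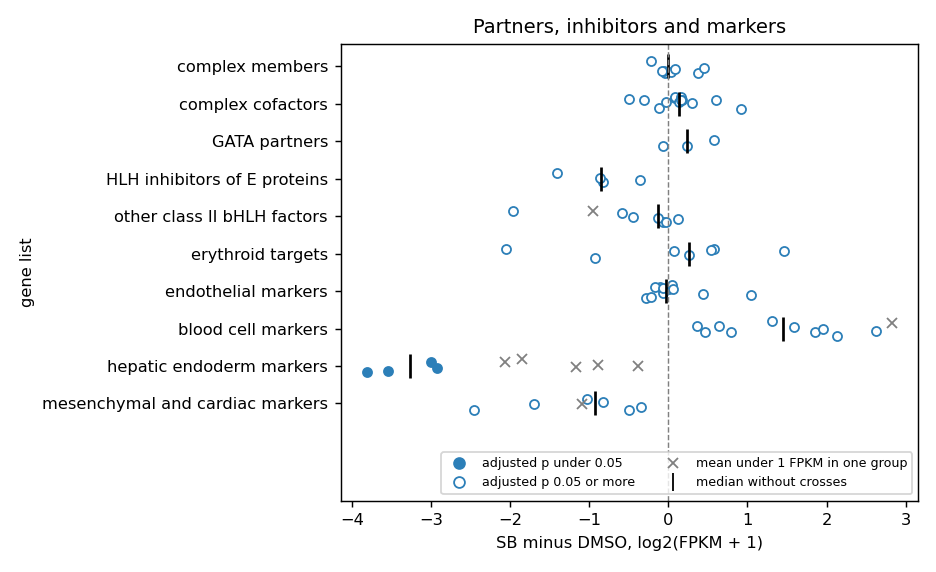
Difference between SB and DMSO in log2(FPKM + 1) for the tested genes of each list (circles, filled where the limma adjusted p was under 0.05; crosses, genes averaging under 1 FPKM in one group; vertical bars, list medians without the crosses; vertical positions within a row are spread for legibility). The 8 genes lie between -0.22 and 0.45, the ID genes to the left of 0 and the blood cell markers to the right.

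Markers of other cell types were read in the same libraries. Since these were bulk libraries, fewer cells of a type and less RNA per cell cannot be told apart. The 12 endothelial markers had a median of -0.03 and summed to 2545, 2149, 2525 and 2167 FPKM in DMSO replicates 1 and 2 and SB replicates 1 and 2. All 12 were detected in every library, 0 passed the adjustment and 1 had an unadjusted p under 0.05, against 9.96% of all genes tested. In that list CLDN5, a tight junction protein, was at 1.04 (limma adjusted p = 0.318), ANGPT2, a ligand of TEK, at 0.44 and CDH5, the endothelial cadherin, at -0.28. Of 11 blood cell markers tested, 0 passed the adjustment. Of the 10 that averaged 1 FPKM or more in both groups, 9 had an unadjusted p under 0.05. All 10 were wholly higher with SB (median 1.45). Among all genes tested, 9.96% had such a p and 21.5% were wholly higher. The 12 markers listed summed to 342 and 353 FPKM in DMSO and 786 and 914 FPKM in SB. SPN, MYB and BTK in this list are genes of the study's heatmap. CSF1R (2.14, limma adjusted p = 0.0753), the receptor of macrophage growth factor, and PLEK (1.95, limma adjusted p = 0.0803), a platelet and leukocyte protein, were among the 3 with the smallest unadjusted p. The other was PPBP, a platelet chemokine at 0.559 and 1.29 FPKM in DMSO and 10.3 and 15.0 FPKM in SB, which passed the filter only through the SB libraries. PTPRC (CD45), a defining marker of white blood cells, was below the filter, at 0.202 FPKM or less in every library.

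Of the lists used here, hepatic endoderm markers were the one with genes past the adjustment. Of 9 tested, 5 averaged under 1 FPKM with SB and passed the filter only through the DMSO libraries, so they are not counted. The 4 others all fell with SB, among them APOA1 (-3.81, limma adjusted p = 0.0201), AFP (-3.55, limma adjusted p = 0.0232) and TTR (-3.00, limma adjusted p = 0.0353), all plasma proteins made by fetal liver. The 12 markers listed summed to 290.3 and 327 FPKM in DMSO and 30.4 and 33.0 FPKM in SB, while ALB was below the filter. HHEX, which is also made by hepatic endoderm, was at 0.08, with the interval given above. Of 7 mesenchymal and cardiac markers 0 passed. Of the 6 that averaged 1 FPKM or more in both groups, 5 had an unadjusted p under 0.05. All 6 were wholly lower with SB (median -0.93). Among all genes tested, 9.96% had such a p and 37.5% did not overlap in either direction. The 9 markers listed summed to 408 and 374 FPKM in DMSO and 200.04 and 203 FPKM in SB. COL1A1 (-2.46, limma adjusted p = 0.0646) and COL3A1 (-1.03), both collagens, and TAGLN (-1.70), a smooth muscle protein, had the smallest unadjusted p among the markers that averaged 5 FPKM or more in the higher group. The part of blood cell, endoderm or mesenchymal RNA in the values of TAL1, LYL1 and the ID genes was not tested.

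Likeness of profile was measured as the Euclidean distance between log2(FPKM + 1) values centred on each gene's own mean, over 4 libraries and 83 tested genes of the lists. The nearest to TAL1 were NFE2 (distance 0.177) and LMO4 (0.241), and the nearest to LYL1 were ITGA2B (0.256) and FLI1 (0.264). LMO2 was nearest to NHLH2 (0.0475) and ESAM (0.0727), and HHEX to HDAC1 (0.0709) and ESAM (0.113), which were among the steady genes. LDB1 was nearest to TCF15 (0.187) and SSBP4 (0.197), TCF3 to LDB1 (0.380) and TWIST1 (0.427), TCF4 to COL1A2 (0.265) and CD34 (0.286), and TCF12 to HDAC2 (0.147) and RCOR1 (0.180). With 4 points from 4 shared libraries these distances are a description.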

How the data were processed

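The authors deposited 1 table of FPKM values with 58365 rows and 4 columns, 1 per library, without fold changes or p-values. The submitters' processing notes name BWA, Bowtie, RSEM and the build hg19, with no versions or roles. However, 95.5% of the versioned identifiers were found in GENCODE release 29, almost all (99.8%) at the GRCh38 position given there, so 1-based GRCh38 coordinates are used. Total fragments per library are unknown. Relative depth, read from steps in the lowest values of single-exon genes, ranged from 75.7% (SB replicate 1) to 100.0% (SB replicate 2), with 68.0% to 73.7% of values within 1% of a step. FPKM corrects neither GC composition nor RNA makeup, and both can shift levels.

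Values were transformed as log2(FPKM + 1), which understates the change of low genes. Genes averaging 1 FPKM or more in either group were tested with limma 3.58.1 (R 4.3.3, empirical Bayes with trend, group as the only term, two-sided, threshold 0.05), using a script tested on simulated data. The members, gene lists and tests were chosen with earlier results of these data known. Named genes were the members, per list up to 3 genes of smallest unadjusted p whose higher group averaged 5 FPKM or more, and the 2 nearest profiles per member. ID4, TAL2, genes below the filter and genes named for their place in the study's heatmap were added after their values were seen. Of the genes this rule named, 1 is left out of the text. Where a symbol had several rows, the row with the highest mean was used. Alternatives covered the pseudocount, filters, scaling, a replicate block, left-out libraries and, chosen after seeing the data, a correction for transcript GC content.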

Additional observations from a re-analysis of the deposited data

How the results depend on the processing

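Of 104 alternative values for the 8 genes, 90 kept their direction and side of the threshold, 2 passed it newly and 12 turned their sign. TAL1, LYL1 and HHEX turned under no alternative run. TCF12 turned to -0.0117 under quantile normalization, to -0.00899 after rescaling to TPM, and to -0.0213 after a correction for GC content (chosen after seeing the data) with or without the block. Leaving out 1 library at a time gave -0.24 to 0.32 for TCF12, -0.59 to 0.47 for LDB1, -0.83 to 0.66 for TCF3, -0.46 to 0.0125 for TCF4, -0.0946 to 0.0189 for LMO2, 0.24 to 0.50 for TAL1, 0.21 to 0.69 for LYL1 and 0.00307 (without SB replicate 1) to 0.16 (without SB replicate 2) for HHEX, and moved the median of the 8 genes between -0.0228 and 0.29. The number of genes without overlap between groups, 1 as reported, was 3 under quantile normalization (36.6% of all genes in that setting), 2 after rescaling to TPM (35.9%), 3 after GC correction (46.3%) and 2 to 7 with 1 library left out (63.0% to 75.7%), where a group of 1 has fewer values to overlap. After GC correction, 2 of the 8 genes had an unadjusted p under 0.05, against 15.9% of all genes.

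Same-numbered libraries deviated together from their group means (r = 0.528 over 14909 genes), but the labels do not say what a number marks and there are only 2 pairs, so the block stayed out of the reported fit. With the replicate block in limma, 1 of the 8 genes passed the adjustment, against 10.5% of all genes, namely LYL1 at 0.45 (adjusted p = 0.0211), TAL1 stood at 0.37 (adjusted p = 0.05003), and 2 genes had an unadjusted p under 0.05, against 30.4% of all genes. With the block and GC correction together, 1 gene passed (LYL1, 0.45, adjusted p = 0.0223; 10.5% of all genes), 2 had an unadjusted p under 0.05 (31.3% of all genes), and TAL1 had an adjusted p of 0.0566.

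Over all genes, 20 passed the adjustment as reported, 1564 with the block, 1561 with the block and GC correction, 133 with GC correction alone, 31 under quantile normalization, 0 without a filter on low values (of 29447 genes) and 0 to 14 with 1 library left out. The cause of these differences was not tested. Depth in fragments is unknown, so counting error could not be separated from spread between libraries.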
